A study of Mus musculus with 10 samples.

Results

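The comparison described here sets the retina of mice with oxygen-induced retinopathy (OIR) at postnatal day 17, with no injection into the eye, against the retina of untreated mice at postnatal day 7, the age at which the oxygen exposure begins. The arrays were chosen by their titles alone, and they are 4 of the 10 arrays of the series, 2 per group. All groups are retina of strain C57BL/6JJmsSlc mice, for which the labels name no mutation or transgene. The OIR mice were placed in 75% oxygen at day 7, kept there for 5 days and then returned to air until day 17. The mice at day 7 are labelled as untreated, as are those of a further pair of arrays at day 17, which serves as the reference for what the retina does over the same days without the oxygen cycle. The remaining 4 arrays are OIR retinas at day 17 injected into the vitreous, 2 with PBS (saline) and 2 with ISOX DUAL, called an inhibitor in the labels. They are compared with no group here. They enter the estimate of the spread between arrays, the filter on low values and the choice of the array feature that stands for a gene. The labels do not say whether an array holds the retina of 1 mouse or a pool, nor the sex of the mice, so genes on the X and Y chromosomes were left out. The 2 groups compared differ in age and in oxygen history at once, and these cannot be told apart without the untreated day 17 arrays.

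In mice the retina is unfinished at birth. Rods and cones extend their light-sensing outer segments, bipolar cells connect to them, and the last progenitors leave the cell cycle during the first weeks of life, while vessels spread from the optic nerve over the surface and then into the deeper layers. In the OIR model high oxygen removes part of the young vessel bed, the return to air leaves the neural retina short of oxygen, and vessels regrow as abnormal tufts, which are commonly studied at the end of the third week of life.

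Of 22097 autosomal genes tested, 1213 (5.49%) were higher and 981 (4.44%) were lower in uninjected OIR at day 17 than at day 7, at an adjusted p below 0.05 in a limma fit of all 10 arrays. Among them, 473 were higher and 202 were lower by more than 1 on the log2 scale, which is the scale of the deposited values, and 19 and 8 differed by more than 3. Over the same days in the untreated retina 1177 genes (5.33%) rose and 1176 (5.32%) fell. Both comparisons use the same day 7 arrays and are therefore not independent, so their values are given side by side and the difference between them is taken from the direct comparison of OIR with untreated day 17. That direct comparison called 103 genes higher (0.466%) and 9 lower (0.0407%), or 0.507% in all. These shares of all genes are the background for every list count below. The 88 genes that were higher in OIR than in both untreated groups (0.398%) and the 0 genes lower than both (0.0%, with 98 lower than both at an unadjusted p below 0.05) are those that passed against day 7 and against untreated day 17 in 1 direction.

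The counts against day 7 depended on single arrays: they were 602 higher and 403 lower without OIR array 1, 737 and 434 without OIR array 2, 787 and 654 without day 7 array 2, and 879 and 619 without either ISOX DUAL array. In the untreated retina 696 to 1091 genes rose and 695 to 1177 fell when 1 array was left out. Of the genes whose call in the untreated retina is stated or used below, Angpt2, Cd44, Itga6, Itgb1, Kdr, Mcam, Pecam1, Pgf, Prtg, Rxrg, Sox9 and Spidr lost it without at least 1 single array. The counts against untreated day 17 depended on them more, and no gene passed without untreated day 17 array 2 (2 were higher without array 1), so every call against untreated day 17 below rests on that array. Calls against untreated day 17 were often lost without other arrays as well, injected ones among them. Those of Cd44, Cdcp3, Folh1, Itga6 and Pfkp were lost whichever of the 10 arrays was left out. Those of Abca8a, Atf3, Bnip3, Ero1a, Itgb1 and Nes were lost without any 1 of 8 arrays, and that of Ndufa4l2 without any 1 of 9. Within each of the 3 uninjected groups the differences between the 2 arrays had an SD of 0.33 to 0.40 over all genes. This SD was smaller in the injected groups, 0.16 with ISOX DUAL and 0.22 with PBS. The fit pools the spread of all 5 groups, so the injected arrays also set the standard errors of comparisons between uninjected groups. The median gene differed by -0.04 between OIR and day 7, and the median standard error was 0.13.

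The dissection was checked with markers of other tissues. The 20 lens genes averaged 5.77 and 6.07 at day 7, 5.84 and 6.06 in the untreated day 17 retina and 5.80 and 5.87 in OIR, close to the negative control medians of the arrays (5.83 to 6.11), and 14 and 12 of the 20 lay below that median on the OIR arrays. The 14 genes of the pigment epithelium, the layer behind the retina, averaged 6.19 and 5.91 at day 7, 6.83 and 6.53 at untreated day 17 and 6.52 and 6.06 in OIR. In the untreated retina 4 of the 14 were called, and 0 of them without untreated day 17 array 1, either day 7 array or either PBS array, while 0 were called in OIR. The 9 myelin genes, which would mark optic nerve, averaged 5.91 and 6.11 at day 7 and 5.76 and 5.93 in OIR. The part of these tissues in any result was not tested. For the retina itself, the Müller gene Glul was not analysed here, and the rod, cone, bipolar and vessel markers are described with their cell types below.

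**Figure D1:**
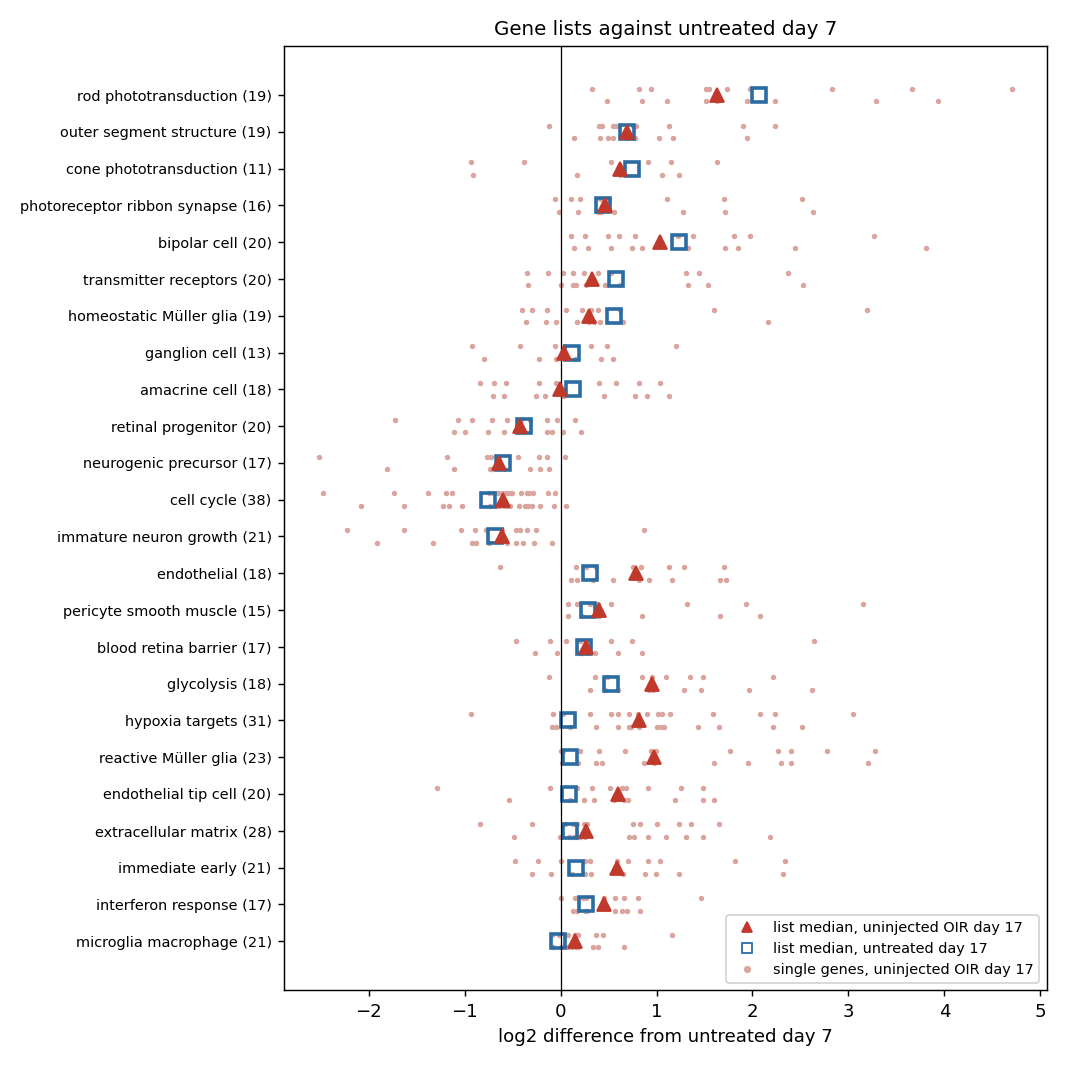
Log2 difference from untreated day 7 on the horizontal axis for 24 gene lists, with the number of tested genes in brackets. Dots are single genes in uninjected OIR at day 17, filled triangles are the list medians in OIR and open squares the list medians in the untreated day 17 retina. Photoreceptor, bipolar and proliferation lists have nearby medians in both retinas, whereas the medians of hypoxia targets (0.82 against 0.07) and of reactive Müller glia (0.98 against 0.09) lie apart.

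The rod light response held 4 of the 10 largest rises, counted without predicted genes, small RNA genes and genes whose OIR and day 7 arrays overlapped. These 4 genes rose in the untreated retina as well. Of 19 tested genes of the rod cascade, 15 rose and 0 fell between day 7 and OIR day 17, with a list median of 1.63 on the log2 scale beside -0.04 over all genes, and 17 of the same 19 rose in the untreated retina, with a median of 2.07. None of the 19 passed the test between OIR and untreated day 17. The count in OIR was 9 without OIR array 1. In RNA of a whole retina more cells of a type and more RNA per cell cannot be told apart, and this holds for every cell type named here.

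Slc24a1, the exchanger that removes calcium from the rod outer segment, led the list. Its log2 signal read 6.48 and 6.04 at day 7, 10.74 and 11.28 at untreated day 17 and 10.92 and 11.01 in OIR. OIR therefore stood with the untreated day 17 retina and far above day 7, a rise of 4.70 ± 0.20 (SE, n = 2 arrays per group; adjusted p = 3.28e-05). Of its day 7 arrays 1 was just below the negative control median, so no fold is given. For Trpm1, Glra1, Slc5a7, Abcc9, A2m, Folh1, Myb and Mybl1 below, 1 array of the lower group was also below that median, and their folds are approximate. Gnat1 encodes the rod form of transducin, the G protein of the rod light response. Its arrays read 9.85 and 8.53 at day 7, 13.17 and 13.20 at untreated day 17 and 13.22 and 13.04 in OIR, a rise of 3.94 ± 0.35 or 15.3-fold (adjusted p = 0.000681). The day 7 arrays differed from each other by more than a log2 unit, and both were below every day 17 array.

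Further steps of the cascade moved in the same way. Pde6a, a catalytic subunit of the phosphodiesterase that breaks down cGMP, went from 8.58 and 7.54 at day 7 to 11.75 and 11.70 in OIR, a 12.7-fold rise (adjusted p = 0.000417). Guca1b, which restores cGMP by activating guanylate cyclase when calcium falls, went from 6.45 and 6.61 to 9.76 and 9.88, a 9.75-fold rise (adjusted p = 0.000114). The untreated day 17 arrays were at 11.67 and 11.90 for Pde6a and 9.66 and 10.25 for Guca1b, so the OIR arrays lay within the untreated pair for both. Guca1a, the partner of Guca1b, was chosen for mention after its values were seen. It read 7.56 and 6.74 at day 7, 9.63 and 9.85 at untreated day 17 and 9.19 and 8.38 in OIR. It rose by 1.63 ± 0.31 in OIR and by 2.59 ± 0.31 in the untreated retina, and both OIR arrays were below the untreated pair, but the difference of -0.96 ± 0.31 did not pass (adjusted p = 0.534). Its rise in OIR was not called without day 7 array 2 or OIR array 1 (largest adjusted p = 0.0754).

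Promoters of these genes are shown because many of them hold the same short word. CRX and OTX2, homeobox factors of photoreceptors, recognise TAATCC, which was searched on both strands over the 250 bases before the start of each gene in the RefSeq promoter table (GRCm38.p6). Of the rod genes that rose in OIR, 10 had an entry and 7 of them (70.0%) held the word, as did 5 of 9 (55.6%) outer segment genes, against 7.21% of all 27025 genes in the table. The last 120 bases before the start are printed 5′ to 3′ on the gene's strand, with the word, here always as its complement GGATTA, in capitals. Sag, the rod arrestin, and Abca4 and Aipl1, both described with the outer segment, hold it, and the leading gene Slc24a1 holds no match in these bases. A match is a description of the letters and not a bound site.
Sag (chr1:87803560-87803679, plus strand): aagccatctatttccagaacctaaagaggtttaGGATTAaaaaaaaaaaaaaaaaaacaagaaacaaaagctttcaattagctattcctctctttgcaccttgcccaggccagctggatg
Abca4 (chr3:122044340-122044459, plus strand): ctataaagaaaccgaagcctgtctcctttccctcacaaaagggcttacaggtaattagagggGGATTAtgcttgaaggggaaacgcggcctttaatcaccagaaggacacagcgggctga
Aipl1 (chr11:72037510-72037629, minus strand): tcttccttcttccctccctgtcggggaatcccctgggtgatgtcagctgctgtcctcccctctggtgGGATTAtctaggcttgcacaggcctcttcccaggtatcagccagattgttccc
Slc24a1 (chr9:64951621-64951740, minus strand): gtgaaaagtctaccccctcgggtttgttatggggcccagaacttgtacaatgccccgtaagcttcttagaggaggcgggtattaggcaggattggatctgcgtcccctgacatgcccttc

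Outer segment genes rose in both retinas. Of 19 tested genes for outer segment discs, the connecting cilium and the surrounding matrix, 10 rose in OIR and 11 rose in the untreated retina, none fell, and the medians were 0.70 and 0.69. In OIR 3 of them passed without OIR array 2, and in the untreated retina 5 without day 7 array 2. Abca4, the flippase that clears retinaldehyde from the discs, read 9.02 and 8.84 at day 7 and 10.71 and 10.96 in OIR, a 3.74-fold rise (adjusted p = 0.000732). Aipl1, a chaperone of the rod phosphodiesterase, read 8.22 and 7.83 and 10.24 and 10.28, a 4.70-fold rise (adjusted p = 0.000645). Untreated day 17 arrays were at 10.49 and 10.99 and 9.93 and 10.51 respectively, and the OIR arrays fell between those of the untreated pair for both genes.

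Prph2, which shapes the disc rim, was already high at day 7 at 11.15 and 11.24 and reached 11.73 and 12.54 in the untreated retina and 12.33 and 12.32 in OIR. Its rise of 1.13 ± 0.22 passed (adjusted p = 0.0176), but not without any 1 of the 4 arrays compared (largest adjusted p = 0.0867). Pcare, an actin regulator needed to start new discs, rose 2.25-fold, from 8.21 and 8.10 to 9.39 and 9.25 (adjusted p = 0.000641), and both OIR arrays were above the untreated day 17 pair at 9.00 and 9.12, without passing the direct test (adjusted p = 0.711). Impg2, a proteoglycan of the matrix around photoreceptors, rose by 0.55 ± 0.10 in OIR (adjusted p = 0.0134, and 0.0852 at the largest without 1 OIR array), beside a difference of 0.15 ± 0.10 in the untreated retina that did not pass.

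Cone genes rose less than rod genes. Of 11 tested, 6 rose and 1 fell in OIR, as in the untreated retina. Pde6c, the cone phosphodiesterase, read 8.51 and 7.95 at day 7, 9.93 and 9.65 at untreated day 17 and 10.05 and 9.66 in OIR, a 3.08-fold rise (adjusted p = 0.00269). Opn1sw, the short-wavelength opsin, went from 8.92 and 8.98 at day 7 to 10.02 and 9.70 in OIR, and the untreated day 17 arrays were at 9.73 and 9.84. All 4 day 17 arrays were above both day 7 arrays, and the 1.88-fold rise in OIR passed (adjusted p = 0.00316). Rxrg, a nuclear receptor of immature cones, was the member that fell, by 0.93 ± 0.13 in OIR and 0.71 ± 0.13 in the untreated retina (adjusted p = 0.00414 and 0.0120).

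Among 13 tested photoreceptor transcription factors, 3 rose and 3 fell. Prdm1, which is on in new photoreceptor precursors and keeps them from becoming bipolar cells, dropped from 9.41 and 9.71 at day 7 to 7.15 and 7.10 in the untreated retina and 7.02 and 7.23 in OIR. The 5.41-fold fall in OIR (adjusted p = 0.000100) had the size of the untreated one, and the 4 day 17 arrays overlapped. Otx2, which drives the photoreceptor and bipolar fate, fell 2.35-fold, from 10.74 and 10.76 to 9.51 and 9.52 (adjusted p = 0.000642). Esrrb, a nuclear receptor of mature rods, rose 5.95-fold, from 6.31 and 6.29 to 8.66 and 9.09 (adjusted p = 0.00128), and Ankrd33, a repressor active in photoreceptors, rose 3.39-fold (adjusted p = 0.00103). Of the other 2, Mef2c rose by 1.48 ± 0.23 and Rorb, an early photoreceptor receptor, fell by 0.56 ± 0.10 (adjusted p = 0.00653 and 0.0108; the second was lost without either OIR array, 0.0709 at the largest).

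**Figure D2:**
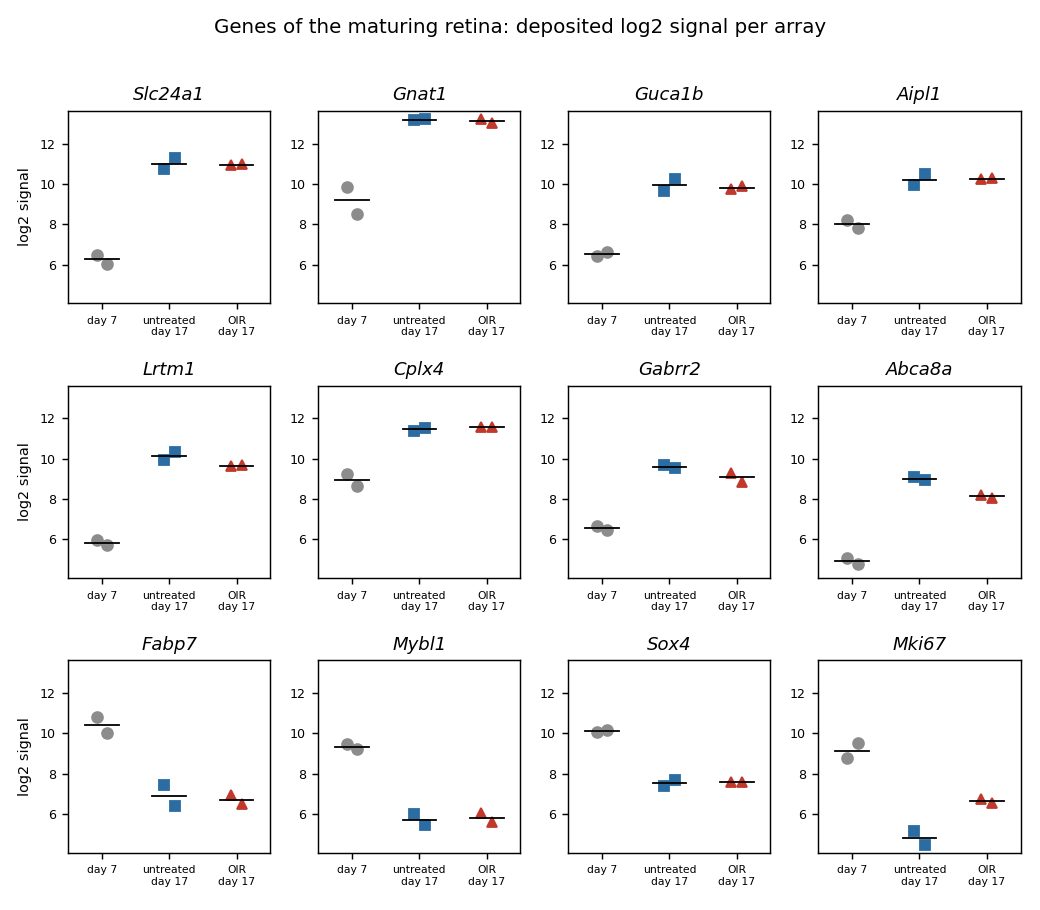
Deposited log2 signal of 12 genes on each array of untreated day 7 (circles), untreated day 17 (squares) and uninjected OIR day 17 (triangles), with bars at the mean of 2 arrays. In the upper 2 rows the OIR arrays lie near untreated day 17 and above day 7 (Slc24a1 at 10.92 and 11.01 against 6.48 and 6.04), with Abca8a between the untreated groups, and in the lowest row Mki67 in OIR lies between them.

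The photoreceptor output synapse followed. A ribbon holds vesicles ready at the rod and cone terminal, and of 16 tested genes of this synapse 7 rose in OIR and 8 in the untreated retina (5 without day 7 array 2), and none fell. Cplx4, a complexin of photoreceptor ribbons, read 9.25 and 8.62 at day 7, 11.37 and 11.55 at untreated day 17 and 11.59 and 11.55 in OIR. Its rise of 6.21-fold passed (adjusted p = 0.000285), and the OIR arrays were as high as or above the untreated ones. Cabp4, which tunes the calcium channel at the terminal, rose 5.72-fold, from 7.59 and 6.75 to 10.14 and 9.23 (adjusted p = 0.00324). Lrit3, which organises the postsynaptic side from the photoreceptor, rose 3.29-fold (adjusted p = 0.000262), and Rims2, a scaffold of the release site, rose 2.15-fold (adjusted p = 0.00189).

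Bipolar cells, which carry the photoreceptor signal inward, gained their genes in both retinas. Of 20 tested, 11 rose and 0 fell in OIR and 13 rose in the untreated retina, with medians of 1.04 and 1.24; the count in OIR was 6 without OIR array 1. Lrtm1, a membrane protein with leucine-rich repeats, read 5.96 and 5.73 at day 7, below the negative control median, 9.95 and 10.33 at untreated day 17 and 9.63 and 9.68 in OIR. Both OIR arrays were below both untreated day 17 arrays and more than 3 log2 units above day 7; the rise was 3.81 ± 0.14 (adjusted p = 2.18e-05), for which no fold is given because of the low day 7 signal. Its promoter is printed because it holds the same homeobox word as the rod genes, with the word in capitals.
Lrtm1 (chr14:29018088-29018207, plus strand): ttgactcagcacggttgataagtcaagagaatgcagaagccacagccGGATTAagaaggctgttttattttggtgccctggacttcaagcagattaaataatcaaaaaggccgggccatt

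Cabp5, a calcium-binding protein of several bipolar types, read 7.29 and 6.65 at day 7, 9.44 and 9.55 at untreated day 17 and 9.10 and 8.81 in OIR, a 3.94-fold rise in OIR (adjusted p = 0.00111) and a 5.75-fold rise in the untreated retina. The OIR arrays were above day 7 and below the untreated pair, and the difference between both day 17 groups, -0.54 ± 0.20, did not pass (adjusted p = 0.646). Rgs11, which ends the G protein signal of ON bipolar cells, was the reverse, with OIR at 8.27 and 7.97 above untreated day 17 at 7.50 and 7.71. It rose 2.60-fold from day 7 (adjusted p = 0.000681), and its difference from untreated day 17 did not pass (adjusted p = 0.222). Trpm1, the channel that opens in ON bipolar cells when light comes on and one of the bipolar markers, rose 9.65-fold, from 7.00 and 5.55 to 9.46 and 9.63 (adjusted p = 0.00213).

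Transmitter receptors of the inner retina rose in part, with a median of 0.33 in OIR and 0.58 in the untreated retina. Of 20 tested genes 8 rose in OIR and 10 in the untreated retina, none passed between both day 17 groups, and 4 passed in OIR without OIR array 2. Gabrr2, a subunit of the GABA receptor on bipolar terminals, read 6.66 and 6.45 at day 7, 9.67 and 9.53 at untreated day 17 and 9.31 and 8.85 in OIR. It rose 5.75-fold in OIR and 8.25-fold in the untreated retina (adjusted p = 0.000173 and 8.34e-05), with both OIR arrays below the untreated pair. Glra1, a glycine receptor subunit, rose 2.71-fold and 4.13-fold (adjusted p = 0.00348 and 0.000887).

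Gabrb1, another GABA receptor subunit, was picked after its values were seen because it was called in the untreated retina and not in OIR. It read 6.44 and 6.07 at day 7, 7.32 and 7.06 at untreated day 17 and 6.43 and 6.39 in OIR. The OIR arrays were within the day 7 pair, and the difference between both day 17 groups, -0.77 ± 0.15, did not pass (adjusted p = 0.125). Slc12a5, the chloride exporter that makes GABA inhibitory in mature neurons, rose 2.89-fold, from 8.30 and 8.45 to 9.71 and 10.11 (adjusted p = 0.00952; 0.0606 without OIR array 2). Grin2a, the mature NMDA receptor subunit, rose by 0.62 ± 0.10 (adjusted p = 0.00743; 0.0531 without OIR array 2).

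Amacrine and ganglion cell genes moved in both directions. Of 18 amacrine genes 4 rose and 4 fell in OIR, but 2 of each passed without OIR array 2. Slc5a7 and Chat, which take up choline and make acetylcholine in starburst cells, rose 2.18-fold and 1.71-fold (adjusted p = 0.00287 and 0.00412), while the fate factors Tfap2a and Nhlh2 fell by 0.70 ± 0.09 and 0.84 ± 0.13 (adjusted p = 0.00234 and 0.00601). The others called were Slc17a8 and Vip, which rose by 0.90 and 0.82 (adjusted p = 0.00818 and 0.0461), and Barhl2 and Tfap2b, which fell by 0.57 and 0.59 (adjusted p = 0.0443 and 0.0133). Slc17a8 and Tfap2b were not called without OIR array 2 (adjusted p = 0.0531 and 0.0859), Vip was not called without any 1 of 8 arrays (0.23 at the largest), and Barhl2 was not called without any 1 of the 10 arrays (0.215 at the largest). Of 13 ganglion cell genes 1 rose and 2 fell, beside 5.49% and 4.44% of all genes. Nefh, the heavy neurofilament of thick axons, rose 2.30-fold, from 7.12 and 6.67 to 8.16 and 8.03, against 8.46 and 8.46 at untreated day 17 (adjusted p = 0.00599). The regulators Eomes and Ebf3 fell by 0.80 ± 0.12 and 0.92 ± 0.21 (adjusted p = 0.00627 and 0.0288; 0.153 for Ebf3 at the largest without 1 array).

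Müller cells, the glia that span the retina, matured in part. Of 19 tested genes of the supporting Müller cell 4 rose and 0 fell in OIR, whereas 6 rose and 2 fell in the untreated retina (0 fell without day 7 array 2 or untreated day 17 array 1), with medians of 0.29 and 0.56. Clu, the secreted chaperone clusterin, rose 4.46-fold in OIR, from 8.07 and 7.18 to 10.29 and 9.28, and the untreated day 17 arrays were at 10.22 and 9.90 (adjusted p = 0.00949). The lower OIR array was below both untreated arrays, the higher one above both, and each was above day 7. Kcnj2, a potassium channel, rose by 1.60 ± 0.17 (adjusted p = 0.00144).

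Abca8a, a lipid transporter of glia, rose without reaching the untreated level. It read 5.08 and 4.80 at day 7, below the negative control median, 9.07 and 8.93 at untreated day 17 and 8.23 and 8.04 in OIR. The 3 groups did not overlap: OIR was 3.19 ± 0.12 above day 7 (adjusted p = 2.46e-05) and differed by -0.87 ± 0.12 from untreated day 17 (adjusted p = 0.0338), which is 1.83-fold lower. Aqp4, the water channel of Müller endfeet, lay between the untreated groups as well. It read 6.42 and 6.22 at day 7, 7.59 and 7.68 at untreated day 17 and 7.04 and 6.92 in OIR. The rise of 0.66 ± 0.12 in OIR (adjusted p = 0.0131) was lost without day 7 array 2 or OIR array 1 (largest adjusted p = 0.0878), and the shortfall against the untreated retina did not pass (adjusted p = 0.0891).

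Kcnj10, the main potassium channel of these endfeet, was chosen after its values were seen. It read 6.71 and 6.36 at day 7, 7.61 and 7.61 at untreated day 17 and 6.90 and 6.81 in OIR. It rose 2.10-fold in the untreated retina (adjusted p = 0.00192), while its OIR difference of 0.32 ± 0.12 did not pass (adjusted p = 0.166) and neither did the direct difference (adjusted p = 0.0560). Spc25, named for a kinetochore subunit but counted here among genes high in adult Müller cells, read 6.83 and 6.82 at day 7, 8.52 and 8.28 at untreated day 17 and 6.87 and 6.50 in OIR. The untreated pair stood apart from both other groups: OIR was 3.28-fold lower than untreated day 17 (adjusted p = 0.00572, 0.063 at the largest without 1 array) and differed from day 7 by -0.14 ± 0.14 (95% interval -0.46 to 0.18).

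The other side of maturation, the loss of progenitor and precursor genes, was also seen under OIR. Fabp7, a fatty acid binding protein of radial progenitors, read 10.83 and 10.04 at day 7, 7.43 and 6.40 at untreated day 17 and 6.93 and 6.50 in OIR. Both day 17 groups overlapped each other and were more than 2 log2 units below day 7, and the fall in OIR was 13.2-fold (adjusted p = 0.00179). Mybl1, a transcription factor of dividing cells, fell 11.5-fold, from 9.48 and 9.21 to 6.04 and 5.60, and the related factor Myb 8.47-fold, from 8.95 and 8.95 to 6.04 and 5.69 (adjusted p = 0.000134 and 0.000285). Cd24a, a surface protein of young neurons, fell 8.47-fold (adjusted p = 0.0136), a call lost without day 7 array 1 or either OIR array (largest adjusted p = 0.0769).

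Other large falls ended below the negative control median, where the size of a difference is not exact. AA623943, an unnamed transcript, read 10.18 and 9.56 at day 7 and 4.95 and 4.92 in OIR. Gje1, a connexin-like gene, went from 8.38 and 8.09 to 4.77 and 5.07, and Ccdc175, a coiled-coil gene, from 7.05 and 6.62 to 3.73 and 3.73. Slc27a2, a fatty acid transporter, and Vxn (vexin, a regulator of neurogenesis) ended at 4.45 and 4.53 and 4.85 and 5.02, and all 5 were also below the negative control median in the untreated day 17 retina.

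Of 20 tested progenitor genes 9 fell and 0 rose in OIR (5 fell without OIR array 2), beside 6 that fell in the untreated retina. Fgf15, a growth factor of retinal progenitors, fell from 6.43 and 6.70 to 4.75 and 4.93 (adjusted p = 0.000392). Cdon, a hedgehog co-receptor, fell 2.10-fold and Nr2e1 (Tlx), an orphan receptor that keeps progenitors dividing, 1.90-fold (adjusted p = 0.000838 and 0.00223). Of 17 genes of newly committed precursors 8 fell in OIR (4 without OIR array 1) and 10 in the untreated retina (4 without untreated day 17 array 1). Sox4 and Sox11, factors of postmitotic precursors, fell 5.73-fold and 3.50-fold (adjusted p = 0.000100 and 0.000120). The Sox4 arrays read 10.05 and 10.15 at day 7, 7.42 and 7.71 at untreated day 17 and 7.59 and 7.58 in OIR, with overlapping day 17 groups.

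Growth genes of immature neurons fell too, 8 of 21 in OIR (5 without OIR array 1) and 9 of 21 in the untreated retina (5 without untreated day 17 array 1 or day 7 array 1). Nnat, neuronatin of developing neurons, fell 4.67-fold, from 10.24 and 10.01 to 8.01 and 7.79 (adjusted p = 0.000925). Marcks, which links membrane to actin in growth cones, fell 2.51-fold, and Dpysl5, a guidance protein, 2.05-fold (adjusted p = 0.00637 and 0.00629). Tubb2b, a tubulin of growing neurites named after its values were seen, read 9.82 and 10.40 at day 7, 6.70 and 7.37 at untreated day 17 and 8.05 and 8.35 in OIR. Both OIR arrays were between the untreated groups: it fell 3.76-fold from day 7 (adjusted p = 0.00850; 0.0594 at the largest without 1 array), and the difference of 1.16 ± 0.31 from untreated day 17 did not pass (adjusted p = 0.341).

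Cell division genes fell in both retinas. Of 38 tested, 21 fell in OIR and 25 in the untreated retina, with medians of -0.60 and -0.76, and 9 passed without OIR array 2. Mki67, the proliferation marker Ki-67, read 8.77 and 9.50 at day 7, 5.14 and 4.49 at untreated day 17 and 6.77 and 6.54 in OIR, so that the groups did not overlap. It fell 5.58-fold in OIR (adjusted p = 0.00246); OIR stood 1.84 ± 0.30 above untreated day 17, just outside the threshold (adjusted p = 0.0570).

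Top2a, the topoisomerase of dividing cells, read 7.06 and 8.11 at day 7, 4.55 and 4.57 at untreated day 17 and 5.54 and 5.46 in OIR, with the same order of groups and no call between both day 17 groups (adjusted p = 0.497). Kif11, a spindle motor, read 7.23 and 7.75 at day 7, 5.44 and 5.18 at untreated day 17 and 5.79 and 5.71 in OIR, and fell by 1.74 ± 0.20 log2 units (adjusted p = 0.00194). Over the 38 genes the median difference of OIR from untreated day 17 was 0.22, beside -0.03 over all genes, and 0 of them passed.

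Kit, the receptor of stem cell factor, and Dusp16, a phosphatase of stress kinases, fell incompletely by the direct test. Kit read 8.21 and 8.37 at day 7, 6.42 and 6.29 at untreated day 17 and 7.19 and 7.28 in OIR. OIR lay midway, 2.08-fold below day 7 (adjusted p = 0.000878) and 1.84-fold above untreated day 17 (adjusted p = 0.0186). Dusp16 read 8.48 and 8.45, 7.25 and 7.24 and 7.94 and 8.06, with OIR 1.69-fold above untreated day 17 (adjusted p = 0.0234); its fall from day 7 was lost without any 1 of the 4 arrays compared (largest adjusted p = 0.113).

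Folh1, a peptidase that frees glutamate from a neuropeptide, and Cdcp3, a membrane gene, rose incompletely. Folh1 read 3.74 and 3.99 at day 7, 7.44 and 7.79 at untreated day 17 and 6.14 and 5.42 in OIR. The OIR arrays were between the untreated groups and 3.58-fold below untreated day 17 (adjusted p = 0.0306). Cdcp3 was 1.74-fold below untreated day 17 (adjusted p = 0.0345) and 1.06 ± 0.12 above day 7 (adjusted p = 0.00162).

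A further group, assembled after the values were seen, holds the 18 genes that rose or fell in the untreated retina, differed from it in OIR in the opposite direction, and passed no test between OIR and day 7. Such a gene had to have an OIR value near or beyond day 7, so its closeness to day 7 is a description. Nes, encoding nestin, a filament of progenitors and of glia after injury, read 6.71 and 7.20 at day 7, 5.53 and 5.78 at untreated day 17 and 6.89 and 7.06 in OIR. The OIR arrays fell inside the day 7 pair, and the interval of their difference ran from -0.41 to 0.45. Tagln2, an actin-binding protein, read 8.29 and 8.02, 7.05 and 6.97 and 8.40 and 7.97, with an interval from -0.32 to 0.40.

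Ndufa4l2, a mitochondrial protein induced by low oxygen, read 8.75 and 8.23 at day 7, 6.70 and 6.42 at untreated day 17 and 9.35 and 8.37 in OIR, and of its OIR arrays 1 was within the day 7 pair and 1 above it. The integrin subunits Itga6 and Itgb1, receptors for laminin, were 1.64-fold and 1.72-fold above untreated day 17 (adjusted p = 0.0322 and 0.0241). For Itgb1, Sox9, Prtg, Mcam and Olfm4 the 95% interval of the difference from day 7 excluded 0, so these 5 are not described as being at the day 7 level. Sox9, a factor of progenitors and Müller cells, read 8.05 and 8.07 at day 7, 7.43 and 7.56 at untreated day 17 and 8.37 and 8.44 in OIR, above both untreated groups on both arrays.

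**Figure D3:**
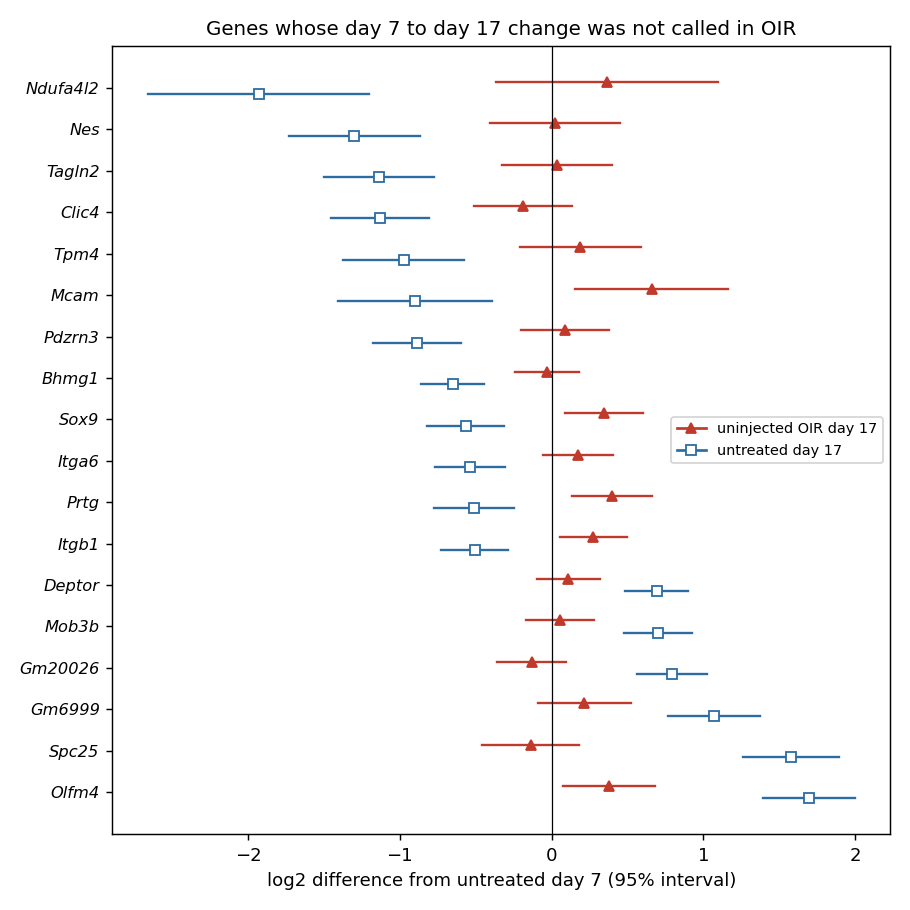
Log2 difference from untreated day 7 with its 95% interval for the 18 genes that changed in the untreated retina (open squares) and differed from it in OIR, without a call between OIR and day 7 (filled triangles). The genes were chosen by these values, and the plot shows that Nes and Tagln2 in OIR lie at 0.02 and 0.04, whereas the intervals of Mcam, Sox9, Prtg, Itgb1 and Olfm4 lie above 0.

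Of the 88 genes higher in OIR than in both untreated groups, 57 are in none of the lists and 31 are in at least 1, of which 29 are in those for low oxygen, reactive glia, sprouting vessels or matrix. Of 31 tested hypoxia targets 18 rose in OIR from day 7 and 1 fell, against 5 that rose (2 without day 7 array 2) and 4 that fell in the untreated retina, and 10 were higher than at untreated day 17. Beside these counts, 5.49% of all genes rose from day 7 and 0.466% were higher than at untreated day 17. The count of 10 was smaller whichever array was left out. The same held for the counts against untreated day 17 given below for glycolysis, reactive glia, tip cell and matrix genes. Without any 1 array, 16 or more of the 31 still rose from day 7.

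Adm, the vessel-relaxing peptide adrenomedullin, read 5.59 and 5.54 at day 7, 5.50 and 5.27 at untreated day 17 and 8.87 and 8.36 in OIR. Both untreated groups were below the negative control median and both OIR arrays far above it, so only log2 differences are given: 3.05 ± 0.18 from day 7 (adjusted p = 0.000164) and 3.23 ± 0.18 from untreated day 17 (adjusted p = 0.00392; 0.063 without untreated day 17 array 2). Vegfa, the main growth factor of new vessels, read 8.99 and 8.75 at day 7, 8.81 and 8.88 at untreated day 17 and 9.94 and 9.91 in OIR. The untreated groups overlapped and OIR was 2.08-fold and 2.12-fold above them (adjusted p = 0.00185 and 0.0176).

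Bnip3, which marks mitochondria for removal, rose 3.02-fold from day 7, from 8.18 and 7.81 to 9.62 and 9.56, and was 2.07-fold above untreated day 17 (adjusted p = 0.000642 and 0.0281). Ero1a, an oxidase for protein folding, rose 3.13-fold and was 2.20-fold above untreated day 17 (adjusted p = 0.000947 and 0.0322). Hmox1, which breaks down heme and was named after its values were seen, read 6.24 and 6.60 at day 7, 6.09 and 6.18 at untreated day 17 and 8.41 and 8.92 in OIR. It was 4.72-fold above day 7 and 5.77-fold above untreated day 17 (adjusted p = 0.00212 and 0.0141), with no overlap.

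Other members of the hypoxia list also moved without the oxygen cycle. Hk2, the inducible hexokinase, read 6.66 and 6.75 at day 7, 8.36 and 8.50 at untreated day 17 and 8.81 and 9.02 in OIR. It rose 4.63-fold in OIR and 3.30-fold in the untreated retina, with no call between both day 17 groups (adjusted p = 0.558). Ndrg1, a stress gene of myelinating and other cells, was the member that fell, by 0.94 ± 0.09 in OIR and 1.20 ± 0.09 in the untreated retina (adjusted p = 0.00102 and 0.000421).

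The promoters of the hypoxia genes that rose are shown because most hold the core of the hypoxia response element, ACGTG, to which the oxygen-regulated factors HIF-1 and HIF-2 bind. Searched on both strands over 250 bases, it was present in 10 of 16 genes with an entry (62.5%), against 18.5% of all 27025 genes in the table, and in 0 of the 10 rod genes. The homeobox word of the rod genes was in 0 of the 16. The list was made of hypoxia targets, so a raised share of this core can follow from how the list was chosen. Promoters were not matched for base composition, and a match is a description of the letters. In the 120 bases before the start printed here, ACGTG or its complement CACGT is in capitals, and in Bnip3 both overlap as CACGTG. Adm, the gene with the largest difference, holds no match in these bases.
Bnip3 (chr7:138909507-138909626, minus strand): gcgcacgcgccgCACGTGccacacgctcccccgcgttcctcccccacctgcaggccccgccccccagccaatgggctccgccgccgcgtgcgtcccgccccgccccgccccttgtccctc
Ero1a (chr14:45318573-45318692, minus strand): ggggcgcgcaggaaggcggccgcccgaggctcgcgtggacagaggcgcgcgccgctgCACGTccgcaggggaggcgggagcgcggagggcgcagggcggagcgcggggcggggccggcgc
Egln1 (chr8:124949255-124949374, minus strand): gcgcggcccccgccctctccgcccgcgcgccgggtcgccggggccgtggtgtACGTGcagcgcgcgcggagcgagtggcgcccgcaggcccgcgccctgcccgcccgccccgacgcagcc
Adm (chr7:110627537-110627656, plus strand): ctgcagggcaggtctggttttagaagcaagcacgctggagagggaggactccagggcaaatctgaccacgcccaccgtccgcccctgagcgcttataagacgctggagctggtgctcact
Egln1, the oxygen sensor that marks HIF for destruction, rose 1.76-fold from day 7 and was 1.94-fold above untreated day 17 (adjusted p = 0.00205 and 0.0129).

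Glycolysis genes rose in both retinas, with list medians of 0.96 in OIR and 0.52 in the untreated retina. Of 18 tested 11 rose in OIR (7 without OIR array 1) and 7 in the untreated retina (3 without day 7 array 2), and 1 of 18 was called between both day 17 groups. That gene, Pfkp, a phosphofructokinase, read 9.63 and 9.63 at day 7, 10.06 and 10.32 at untreated day 17 and 11.09 and 11.10 in OIR, 1.88-fold above untreated day 17 (adjusted p = 0.0345). Slc16a1, a lactate transporter, rose 6.16-fold from day 7 in OIR and 7.67-fold in the untreated retina (adjusted p = 0.000292 and 0.000158). None of 31 nuclear genes of the respiratory chain passed in any of the 3 comparisons.

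Genes of reactive Müller glia were a further group that rose in OIR. Of 23 tested genes 10 rose from day 7 in OIR and 2 in the untreated retina (1 without untreated day 17 array 1 or day 7 array 1), 11 were higher in OIR than at untreated day 17, and the medians from day 7 were 0.98 and 0.09. At least 10 rose from day 7 whichever array was left out. Gfap, the glial filament that Müller cells switch on under stress, read 6.23 and 6.32 at day 7, 6.15 and 6.20 at untreated day 17 and 8.49 and 8.65 in OIR. Both untreated groups were at 1 level and OIR was 4.91-fold above day 7 and 5.26-fold above untreated day 17 (adjusted p = 0.000430 and 0.00526).

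Serpina3n, a protease inhibitor of reactive glia, read 5.85 and 5.87 at day 7, 6.01 and 6.20 at untreated day 17 and 9.61 and 8.67 in OIR. The OIR arrays were nearly a log2 unit apart and both far above the rest, with a rise of 3.28 ± 0.35 from day 7 (adjusted p = 0.00142) and an 8.21-fold difference from untreated day 17 (adjusted p = 0.0191). Stat3, the transcription factor behind such responses, named after its values were seen, read 7.73 and 7.66, 7.63 and 7.83 and 9.21 and 9.38 in the same order, 3.02-fold above day 7 (adjusted p = 0.000971).

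A2m, a protease trap in plasma and glia, was 2.26 ± 0.17 above day 7 and 3.69-fold above untreated day 17 (adjusted p = 0.000389 and 0.00905). Osmr and Cd44 behaved differently, as they also rose in the untreated retina, although Cd44 was not called there without day 7 array 1 or untreated day 17 array 1 (adjusted p = 0.0616 at the largest). Osmr, a receptor of the interleukin-6 family, read 5.40 and 5.01 at day 7, 6.89 and 6.40 at untreated day 17 and 8.67 and 8.15 in OIR, a stepwise order without overlap, with 3.40-fold between both day 17 groups (adjusted p = 0.0275). Cd44, a receptor for hyaluronan, was 2.00-fold above untreated day 17 (adjusted p = 0.0324).

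**Figure D4:**
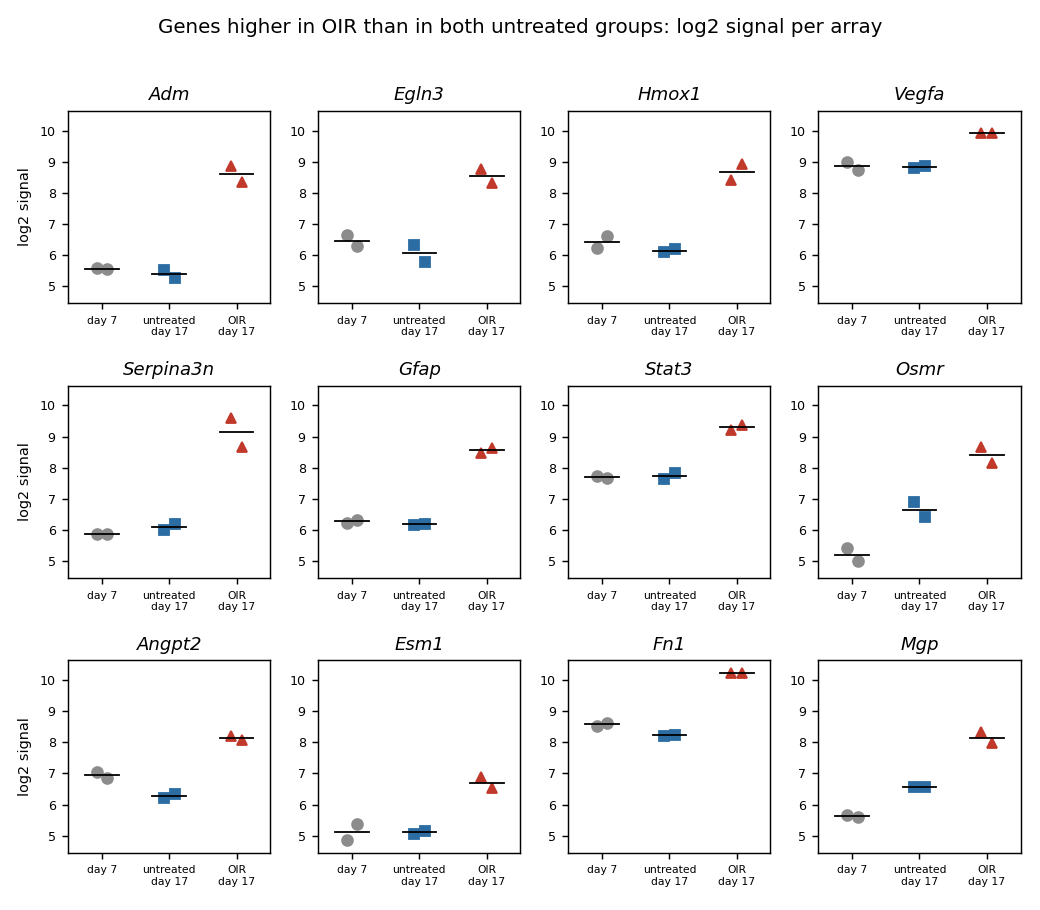
Deposited log2 signal of 12 genes that passed against both untreated groups, on each array of untreated day 7 (circles), untreated day 17 (squares) and uninjected OIR day 17 (triangles), with bars at the mean of 2 arrays. In all 12 panels both OIR arrays lie above all 4 untreated arrays, with the widest gap for Adm (8.87 and 8.36 against 5.59 and 5.54 at day 7).

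Vessel genes were higher in OIR than at day 7. On each day 7 array 11 of the 18 endothelial genes tested lay below the negative control median, as did 4 and 5 on the OIR arrays, so sizes of change are not exact for such genes. Of 18 endothelial genes 10 rose and 1 fell, against 5 (2 without day 7 array 2) and 1 (0 without it) in the untreated retina, and none passed between both day 17 groups. Eng, a co-receptor of the TGF-beta family on endothelium, read 6.86 and 6.70 at day 7, 7.30 and 7.16 at untreated day 17 and 8.17 and 7.97 in OIR, a 2.45-fold rise from day 7 (adjusted p = 0.00302). Pecam1, the endothelial marker CD31, rose 2.24-fold in OIR and 1.54-fold in the untreated retina (adjusted p = 0.00302 and 0.0370), and the second call was lost without any 1 of 7 arrays (largest adjusted p = 0.168). Flt1, the decoy receptor of VEGF, rose 3.25-fold (adjusted p = 0.000903). Kdr, the signalling VEGF receptor, was the member that fell, by 0.63 ± 0.13 (adjusted p = 0.0234), and it fell by 0.71 ± 0.13 in the untreated retina. Its call in OIR was lost without OIR array 1, day 7 array 2 or either ISOX DUAL array.

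Tip cells lead a vessel sprout. Of 20 genes of this state 11 rose from day 7 in OIR and 2 fell, against 1 and 5 in the untreated retina (0 and 2 without untreated day 17 array 1), and 6 were higher than at untreated day 17. Angpt2, which loosens vessels for sprouting, read 7.04 and 6.87 at day 7, 6.22 and 6.33 at untreated day 17 and 8.22 and 8.07 in OIR. The fall in the untreated retina was lost without day 7 array 1 or untreated day 17 array 1 (largest adjusted p = 0.0733). OIR was 2.28-fold above day 7 and 3.65-fold above untreated day 17 (adjusted p = 0.00151 and 0.00526).

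Esm1, a secreted tip cell marker, read 4.85 and 5.37 at day 7, 5.06 and 5.16 at untreated day 17 and 6.88 and 6.53 in OIR. Only the OIR arrays were above the negative control median, by 1.60 ± 0.19 over day 7 (adjusted p = 0.00215). Nid1, a linker of the basement membrane, was 2.80-fold above day 7 and 2.63-fold above untreated day 17 (adjusted p = 0.00213 and 0.0261). The 2 that fell were Cxcr4 and Trp53i11, and both also fell in the untreated retina. Cxcr4, a chemokine receptor, fell by 1.29 ± 0.27 in OIR and 1.98 ± 0.27 untreated (adjusted p = 0.0234 and 0.00404), and Trp53i11 by 0.54 ± 0.13 and 1.11 ± 0.13 (adjusted p = 0.0426 and 0.00245). In OIR Cxcr4 did not pass without OIR array 2 or either day 7 array (largest adjusted p = 0.12), and Trp53i11 did not without any 1 of 8 arrays (0.212).

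Mural cells wrap the vessels, and 9 of 15 of their genes rose from day 7 in OIR and 4 in the untreated retina (2 without day 7 array 2); 4 to 7 rose in OIR with 1 array left out, 4 of them without day 7 array 1 or array 2. Rgs5, a regulator of G protein signals in pericytes, read 8.63 and 8.38 at day 7, 9.68 and 9.28 at untreated day 17 and 10.53 and 10.35 in OIR, a 3.82-fold rise (adjusted p = 0.000645) that was above the untreated retina on both arrays without passing (adjusted p = 0.0759). Vtn, vitronectin, rose 8.91-fold in OIR and 9.18-fold in the untreated retina (adjusted p = 0.000376 and 0.000339). Pdgfrb and Abcc9, a receptor and a channel subunit of pericytes, rose 2.50-fold and 3.17-fold (adjusted p = 0.00183 and 0.000292).

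Genes of the blood-retina barrier split. Of 17 tested 3 rose and 1 fell in OIR, beside 5.49% and 4.44% of all genes, while 6 rose in the untreated retina. Cav1, the caveolar coat protein, read 5.54 and 5.25 at day 7, 7.71 and 7.60 at untreated day 17 and 8.17 and 7.91 in OIR, a rise of 2.64 ± 0.20 (adjusted p = 0.000381). The drug exporter Abcb1a and the junction protein Ocln rose by 0.74 ± 0.10 and 0.53 ± 0.10 (adjusted p = 0.00314 and 0.0148; 0.0946 for Ocln at the largest without 1 array). Mfsd2a, the lipid carrier that holds back transport across the barrier, was the member that fell. It read 7.09 and 7.02 at day 7, 7.22 and 7.23 at untreated day 17 and 6.63 and 6.55 in OIR, below both untreated groups on both arrays. The 1.38-fold fall (adjusted p = 0.0282) was lost without any 1 of the 4 arrays compared or either PBS array (largest adjusted p = 0.146), and the test against untreated day 17 missed the threshold (adjusted p = 0.0570).

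Slco1a4, a barrier transporter of organic anions named after its values were seen, read 4.82 and 4.30 at day 7, 7.50 and 6.96 at untreated day 17 and 5.93 and 4.90 in OIR. It rose by 2.67 ± 0.33 in the untreated retina (adjusted p = 0.00287), while OIR, with arrays a log2 unit apart, passed neither against day 7 (adjusted p = 0.178) nor against untreated day 17 (adjusted p = 0.0897).

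Matrix genes were a further group higher in OIR. Of 28 tested 12 rose from day 7 and 1 fell, against 2 and 2 in the untreated retina, and 6 were higher than at untreated day 17. Of all genes 5.49% rose from day 7, 4.44% fell and 0.466% were higher than at untreated day 17. Fn1, fibronectin, read 8.54 and 8.63 at day 7, 8.21 and 8.23 at untreated day 17 and 10.23 and 10.24 in OIR, 3.13-fold above day 7 and 4.02-fold above untreated day 17 (adjusted p = 0.000777 and 0.00526). The OIR arrays were nearly equal and above all untreated arrays. Ccn1, a matrix protein of injured and growing vessels, was 4.53-fold above day 7 (adjusted p = 0.00136), with OIR at 9.02 and 8.32 and untreated day 17 at 6.71 and 6.75. Sparc and Timp3, a collagen-binding protein and a protease inhibitor, rose 2.14-fold and 2.48-fold in OIR and also rose in the untreated retina (adjusted p in OIR = 0.00175 and 0.000570). Ncan, the neurocan of immature nervous tissue, fell by 0.84 ± 0.15 in OIR (adjusted p = 0.0109; 0.0753 at the largest without 1 array).

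Of the 10 genes with the strongest support against both untreated groups, 5 lie outside the lists described so far. Mgp, an inhibitor of calcification found in vessel walls, read 5.68 and 5.58 at day 7, 6.58 and 6.55 at untreated day 17 and 8.33 and 7.97 in OIR, rising in steps without overlap. It was 3.00-fold above untreated day 17 (adjusted p = 0.00572). Lad1, an anchoring filament protein, was at 8.01 and 8.02 in OIR against 6.21 and 6.51 at day 7, a 3.16-fold rise (adjusted p = 0.000645). Pcolce, an enhancer of collagen processing, rose 3.33-fold (adjusted p = 0.000390). Spidr, a scaffold of DNA repair, was at 7.72 and 7.52 in OIR, 6.54 and 6.60 at day 7 and 6.11 and 5.96 at untreated day 17 (adjusted p against them = 0.00209 and 0.00526). Adgrg6, an adhesion receptor, was at 7.09 and 7.14 in OIR with all 4 untreated arrays below the negative control median, 1.38 ± 0.12 above day 7 (adjusted p = 0.000642).

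Lrrc2, a leucine-rich repeat gene, was among the 10 largest rises, counted as for the rod genes above. Of those 10, only Lrrc2 and Serpina3n also differed from the untreated retina. Lrrc2 read 6.49 and 6.23 at day 7, 8.57 and 8.46 at untreated day 17 and 10.02 and 9.79 in OIR. It rose in both retinas and stood 2.62-fold higher in OIR (adjusted p = 0.0261). Of the others among the 10, Pdzph1, a PDZ-domain gene, rose by 4.21 ± 0.20, Cds1, an enzyme of phospholipid synthesis, by 3.31 ± 0.20 and Drd4, the dopamine receptor of photoreceptors, by 3.35 ± 0.24 (adjusted p = 7.00e-05, 0.000164 and 0.000346), without a call between both day 17 groups.

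Immediate early genes, which respond within minutes to activity or handling, were also higher. Of 21 tested 8 rose from day 7 in OIR (5 without OIR array 1) and 2 rose in the untreated retina (1 without day 7 array 2). Fos, an AP-1 subunit, read 6.47 and 6.16 at day 7, 7.35 and 7.66 at untreated day 17 and 9.00 and 8.31 in OIR, a 5.05-fold rise from day 7 (adjusted p = 0.00105), without a call against untreated day 17 (adjusted p = 0.125). Nr4a1, an orphan nuclear receptor, rose 4.98-fold (adjusted p = 0.00217). Atf3, a stress factor of injured neurons, rose 2.05-fold and was the only member called against untreated day 17 (adjusted p = 0.00258 and 0.0345).

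Microglial and complement genes were called at shares near that of all genes. Of 21 genes of microglia and macrophages 1 (4.76%) rose in OIR, beside 5.49% of all genes: Mrc1, a mannose receptor of macrophages, which read 4.43 and 4.60 at day 7, 4.89 and 4.66 at untreated day 17 and 5.97 and 5.39 in OIR (adjusted p = 0.00846), with the lower OIR array below the negative control median. The mean of the 21 genes was 5.91 and 5.90 at day 7 and 6.27 and 5.97 in OIR, and 7 and 8 of them were below the negative control median on the OIR arrays. C4b, a complement component made by glia, was the 1 of 12 complement genes (8.33%) called, a rise of 0.87 ± 0.16 (adjusted p = 0.0128) that was lost without OIR array 1 or day 7 array 1 (largest adjusted p = 0.0839).

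Of 17 interferon response genes 4 rose (23.5%), beside 5.49% of all genes, and most of these calls were lost without OIR array 1. H2-K1, a class I antigen-presenting molecule, rose 1.75-fold, from 6.40 and 6.44 to 7.37 and 7.08, with untreated day 17 at 6.56 and 6.74 (adjusted p = 0.00576). The regulators Irf9 and Irf7 rose by 0.66 ± 0.12 and 0.83 ± 0.18 (adjusted p = 0.0104 and 0.0268), calls that were lost without single arrays (largest adjusted p = 0.0727 and 0.139), as was that of H2-D1 (0.0957). None of these 4 genes was called in the untreated retina or between both day 17 groups.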

How the data were processed

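Total RNA of retina was biotin-labelled with an Affymetrix whole-transcript kit, per the labels' protocols. The values are log2 signals per transcript cluster, as deposited by the authors in the series' value table; the sources used here do not give the software or normalization behind them, and no scanner files were used. Control probes were set aside (6732 of 72688 rows). Of 65956 clusters 30604 carried 1 gene symbol, 2146 several and 33206 none; the first were updated through RefSeq (22818 by Entrez identifier, 7784 by symbol, 2 kept as given), and the cluster of highest mean stood for a gene. Genes above the 30th percentile on at least 2 arrays (23255) entered a limma model (version 3.58.1, under R 4.3.3) of 5 groups over all 10 arrays with eBayes, with p-values adjusted by Benjamini-Hochberg over all 23255 and called below 0.05; 1147 genes on X or Y and 11 unplaced were then left out. Errors are SE of a log2 difference. No fold is given where the lower group lay below the negative control median on both arrays, and for Slc24a1. The fit was also run on simulated data with known changes, independent arrays and 1 spread per gene. The deposited arrays differ from that setting, so the run does not measure false calls in them.

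The members and gene lists were chosen with earlier results of these data known, so list counts are descriptions and no set test was run. Named genes are drawn from the 10 largest changes in each direction, the 10 with the smallest p against both untreated groups and up to 4 members per list with the smallest p. For the largest changes, genes with predicted names (such as Gm, LOC or Rik), small RNA genes and genes whose OIR and day 7 arrays overlapped were left out first. They are also drawn from a fixed set of markers and from genes whose OIR mean lay between both untreated groups. The last had to pass against untreated day 17 and between both untreated groups, and no call between OIR and day 7 was required of them. Any other gene was chosen after its values were seen. The labels do not say that arrays of a group came from separate mice, so p-values measure the spread between arrays, which may be technical, and the number of arrays, 2 per group, limits precision. Alternatives tried were the filter, quantile normalization, an intensity trend, array weights, fewer arrays, other cluster and gene sets, a replicate block and each array left out.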

Additional observations from a re-analysis of the deposited data

Results flagged for a closer look

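For 3 genes the change from day 7 went in opposite directions in OIR and in the untreated retina, both changes passed the threshold with all arrays, and the difference between them was tested by the direct comparison of the 2 day 17 groups. Angpt2 rose by 1.19 ± 0.13 in OIR and fell by 0.68 ± 0.13 in the untreated retina, a difference of 1.87 ± 0.13 (adjusted p = 0.00526). Spidr, a scaffold of DNA repair, rose by 1.05 ± 0.12 in OIR, from 6.54 and 6.60 to 7.72 and 7.52, and fell by 0.53 ± 0.12 in the untreated retina, a difference of 1.58 ± 0.12 (adjusted p = 0.00526). Pgf, placental growth factor of the VEGF family, rose by 0.57 ± 0.11 in OIR and fell by 0.42 ± 0.11 in the untreated retina, a difference of 0.99 ± 0.11 (adjusted p = 0.0176). Both untreated groups of Pgf, at 5.50 and 5.71 and 5.09 and 5.27, lay below the negative control median, so the size of its changes is not exact, and its rise from day 7 was lost without either OIR array or day 7 array 1 (largest adjusted p = 0.102). In the untreated retina the fall of Angpt2 was lost without day 7 array 1 or untreated day 17 array 1 (largest adjusted p = 0.0733), that of Spidr without any 1 of 6 arrays (0.118) and that of Pgf without any 1 of 9 arrays (0.201). All 3 differences were lost when an untreated day 17 array was left out.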

How the results depend on the processing

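Of 137 named genes called between OIR and day 7, none changed direction under any alternative. The call held for 136 under quantile normalization or an intensity trend, 125 with array weights, 114 in a fit of the 6 uninjected arrays, 95 in a fit of the 2 groups alone, and 119 to 137 with 1 array left out. Counts of genes moved more. For OIR against day 7 the higher count was 784 with array weights, 488 with the 6 uninjected arrays, 331 with the 2 groups alone and 602 to 1342 with 1 array left out, and the lower count 560, 280, 139 and 403 to 1096. For untreated day 17 against day 7 the same settings gave 561, 437, 199 and 696 to 1091 higher, and 506, 362, 132 and 695 to 1177 lower. For OIR against untreated day 17 they gave 10, 6, 0 and 0 to 75 higher and 1, 0, 0 and 0 to 6 lower, the lower count being 16 with an intensity trend and 18 over protein-coding genes. Genes higher than both untreated groups numbered 10, 6, 0 and 0 to 63 under these settings, and genes lower than both 1 with quantile normalization, 1 with a trend, 2 over protein-coding genes and 0 to 1 with 1 array left out. Fits with fewer arrays have fewer degrees of freedom, and fits of uninjected arrays alone also leave out the injected pairs, whose arrays differed less. The part of each in the counts was not tested, nor was the cause for the other settings. Where 1 array was left out, the remaining array of its group was assumed to vary like the other groups. The arrays share replicate numbers that no label ties to a litter or day, and differences between arrays 1 and 2 correlated across genes at 0.809 for OIR with day 7, 0.587 for OIR with untreated day 17, 0.583 for untreated day 17 with day 7 and 0.399 between both injected groups, but at -0.0567 to -0.406 between injected and uninjected groups. With 2 numbers per group and no label behind them they were not taken as pairs. With the replicate block over 10 arrays 1340 genes were higher and 1196 lower in OIR than at day 7. With the block over the 6 uninjected arrays 1622 were lower than at day 7, 1897 fell in the untreated retina, 173 were higher and 30 lower than at untreated day 17, and 145 were higher and 4 lower than both. A typical 95% interval of a single difference reached 0.31 log2 to either side.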

Other observations

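Values of 4 genes outside the lists, chosen after they were seen, follow. Slc14a1, a urea transporter, read 7.20 and 6.94 at day 7, 7.86 and 7.93 at untreated day 17 and 9.49 and 9.03 in OIR, and was 2.58-fold above untreated day 17 (adjusted p = 0.0281). Tnfaip3 (A20), a brake on NF-kappaB signals, rose in both retinas, 7.88-fold in OIR, from 6.33 and 5.80 to 9.04 and 9.04, and 9.00-fold in the untreated retina (adjusted p = 0.000134 and 9.95e-05); 1 day 7 array was below the negative control median, so these folds are approximate. Il33, an alarm cytokine stored in glial nuclei, rose by 2.38 ± 0.19 in OIR and 3.20 ± 0.19 in the untreated retina, and the day 17 groups did not overlap, at 7.57 and 7.12 in OIR and 8.14 and 8.19 untreated, without a call between them (adjusted p = 0.228). Ahr, the aryl hydrocarbon receptor, rose 4.75-fold in OIR and 2.42-fold in the untreated retina (adjusted p = 0.000677 and 0.00648).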
